A study of Mus musculus with 8 samples.

Results

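The class 3 semaphorin system was examined in JoMa1, a mouse neural crest precursor line, and in lines from the tumours it formed with MYCN. The members were 5 ligand genes (Sema3a, Sema3c, Sema3d, Sema3e and Sema3f), 2 neuropilin genes (Nrp1 and Nrp2) and 3 plexin genes (Plxna1, Plxna2 and Plxnd1). Every probe set whose single annotated gene symbol was one of these 10 names was taken, which gave 29 of the 45101 probe sets, and 10 of the 18193 genes with a probe set of their own. The number of probe sets per gene ran from 1 (Plxnd1) to 4 (Sema3e, Nrp1, Nrp2 and Plxna2).

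Class 3 semaphorins are secreted guidance cues. Most bind a neuropilin, which has a short cytoplasmic tail and passes the signal through a plexin, whose cytoplasmic domain acts on small GTPases and on the cytoskeleton. Sema3e is the exception and binds plexin D1 directly. In the embryo, migrating neural crest cells carry neuropilins and plexins and are steered by these ligands, repelled by Sema3a and Sema3f and drawn to the cardiac outflow tract by Sema3c. Neuropilins are also receptors for vascular endothelial growth factors.

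The groups were 4 lines from tumours that JoMa1 formed in immunocompromised mice after transfection with MYCN (numbered 3 to 6 here, as in their titles), 1 array labelled JoMa1 with a GFP control transfectant, and 3 arrays of parental JoMa1. All were mouse cells harvested from culture before confluence. The tumours are labelled independent but may share a transfected stock, and the parental arrays are not stated to come from separate cultures, so that p-values measure only the spread between these arrays, which may be technical. JoMa1 carries a tamoxifen-activated MYC fusion, and whether tamoxifen was present was not stated. Levels are given as log2 RMA values, ± gives the SD within a group, and SE is the standard error of a difference in limma. A probe set was called at an adjusted p under 0.05 over all 34945 probe sets with 1 gene symbol. Probe sets bind with different strength, so that levels are compared between arrays and not between genes.

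Array medians lay between 6.26 and 6.30, and the bacterial trpnX control probe sets, which should carry no signal, read 3.56 to 4.47. The bioB spike-in control was lower on parental array 3 (7.70) than on the other arrays (8.86 to 9.17), and its part in the results was not tested. The brightest Mycn probe set read 14.17 ± 0.08 in the tumour lines, 11.73 in the library labelled GFP-transfected and 7.42 ± 0.12 in parental arrays. On another Mycn probe set the parental arrays were highest, with means of 4.60, 4.33 and 8.13, and the remaining probe set was not called between tumour lines and parental arrays. The middle value of the brightest probe set contradicts its label, which names GFP alone as the transfectant, a limit on every direction that rests on that library. Among neural crest markers, Sox10 read 7.42 ± 0.03, 7.35 and 7.34 ± 0.13 in tumour lines, that library and parental arrays. Foxd3 (4.68 ± 0.09, 4.56 and 4.59 ± 0.16) and Ngfr (5.36 ± 0.19, 5.56 and 5.40 ± 0.15) were below the array medians in each. Other markers of this list were far brighter. The summed linear level of all 10 neural crest markers was 6937 to 9468 in tumour lines and 9009 to 9586 in parental arrays. In that library the sum was 6541. Of 10 such markers 1 rose in tumour lines (Snai2) and 3 fell against parental arrays (Tfap2b, Pax3 and Ets1), and of 8 neuron markers 1 rose (Map2) and 1 fell (Tubb3), all named after their values were seen (over the brightest probe sets of all genes, 16.4% were called higher and 19.3% lower). The summed linear level of the neuron markers was 605 to 751 in tumour lines and 1143 to 1254 in parental arrays. In that library it was 1075. Of 10 endothelial markers, Pecam1 among them (4.40 ± 0.10 in tumour lines, 4.55 ± 0.19 in parental arrays), 0 were called in limma between tumour lines and parental arrays, and 0 had an unadjusted p under 0.05. The leukocyte marker Ptprc read 4.08 ± 0.04 and 4.14 ± 0.24, near the trpnX controls. Of the 9 measured leukocyte markers 3 rose (Cd14, Cd68 and Lyz2, named after their values were seen), against the 16.4% called higher over all genes, and the summed linear level of the list was 1040 to 1320 in tumour lines, 724 in the library labelled GFP-transfected and 591 to 649 in parental arrays. Their part in the results below was not tested.

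Promoters are shown for the member ligand that rose, the member ligand that fell most and the plexin it binds. They were taken from the RefSeq promoter table (GRCm38.p6), which held 8 of the 10 members, and each runs from 250 bases before to 50 bases after the gene's start. Sequences read 5′ to 3′ on the gene's strand, and capitals mark the MYC-type E-box CACGTG and the GC box GGGCGG on either strand.
Sema3c, chr5:17574566-17574865, plus strand: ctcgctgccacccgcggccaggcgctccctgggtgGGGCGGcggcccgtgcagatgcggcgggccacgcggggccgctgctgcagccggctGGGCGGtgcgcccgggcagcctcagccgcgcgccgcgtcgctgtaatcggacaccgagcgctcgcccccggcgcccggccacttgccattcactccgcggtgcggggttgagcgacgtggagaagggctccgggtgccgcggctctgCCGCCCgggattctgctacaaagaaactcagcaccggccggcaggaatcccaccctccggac
Sema3e, chr5:14025026-14025325, plus strand: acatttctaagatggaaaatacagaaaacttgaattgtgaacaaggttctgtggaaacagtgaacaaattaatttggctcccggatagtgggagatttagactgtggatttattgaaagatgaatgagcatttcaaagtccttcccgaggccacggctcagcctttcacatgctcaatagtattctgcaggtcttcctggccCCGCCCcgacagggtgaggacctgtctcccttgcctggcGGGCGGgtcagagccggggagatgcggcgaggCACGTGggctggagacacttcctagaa
Plxnd1, chr6:115994956-115995255, minus strand: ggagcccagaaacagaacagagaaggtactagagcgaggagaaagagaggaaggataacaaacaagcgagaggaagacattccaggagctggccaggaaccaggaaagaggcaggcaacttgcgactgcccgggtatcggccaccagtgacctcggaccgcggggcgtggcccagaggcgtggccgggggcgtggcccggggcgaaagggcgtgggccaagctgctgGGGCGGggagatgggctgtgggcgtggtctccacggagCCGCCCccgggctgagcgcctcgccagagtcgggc
The E-box CACGTG stood in 1 of the 8 member windows, that of Sema3e, where it begins at base 274, after the start at base 251. Of all 32851 windows of this length in the table, 7.15% held it. The looser E-box CANNTG, which includes CACGTG, was in 5 of the 8 windows and in 72.3% of all. The GC box was in 6 of the 8 and in 35.7% of all. It was in the windows of Sema3c, Sema3e, Nrp1, Nrp2, Plxna2 and Plxnd1, and not in those of Sema3a and Sema3d. A match is a string of letters and does not show that a factor binds there.

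The first comparison set the tumour lines against the precursors from which the tumours arose. Sema3e fell strongly, Sema3c rose, and every called probe set of a neuropilin or plexin was lower. Of the 29 member probe sets, 20 were called (background over all probe sets 33.9%). Of these, 2 were higher (background 15.5%) and 18 lower (background 18.4%), and 14 changed at least 2-fold (background 7.65%). The groups did not overlap for 20 member probe sets (background 42.0%). The median difference was -0.72 over the members' probe sets and 0.01 over all probe sets. Taking each gene by its brightest probe set, 1 of 10 genes rose, 6 fell and 3 were not called (background over the brightest probe sets 35.6% called, 16.4% higher and 19.3% lower). In a culture, fewer cells that carry a transcript and less of it per cell cannot be told apart.

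**Figure D1:**
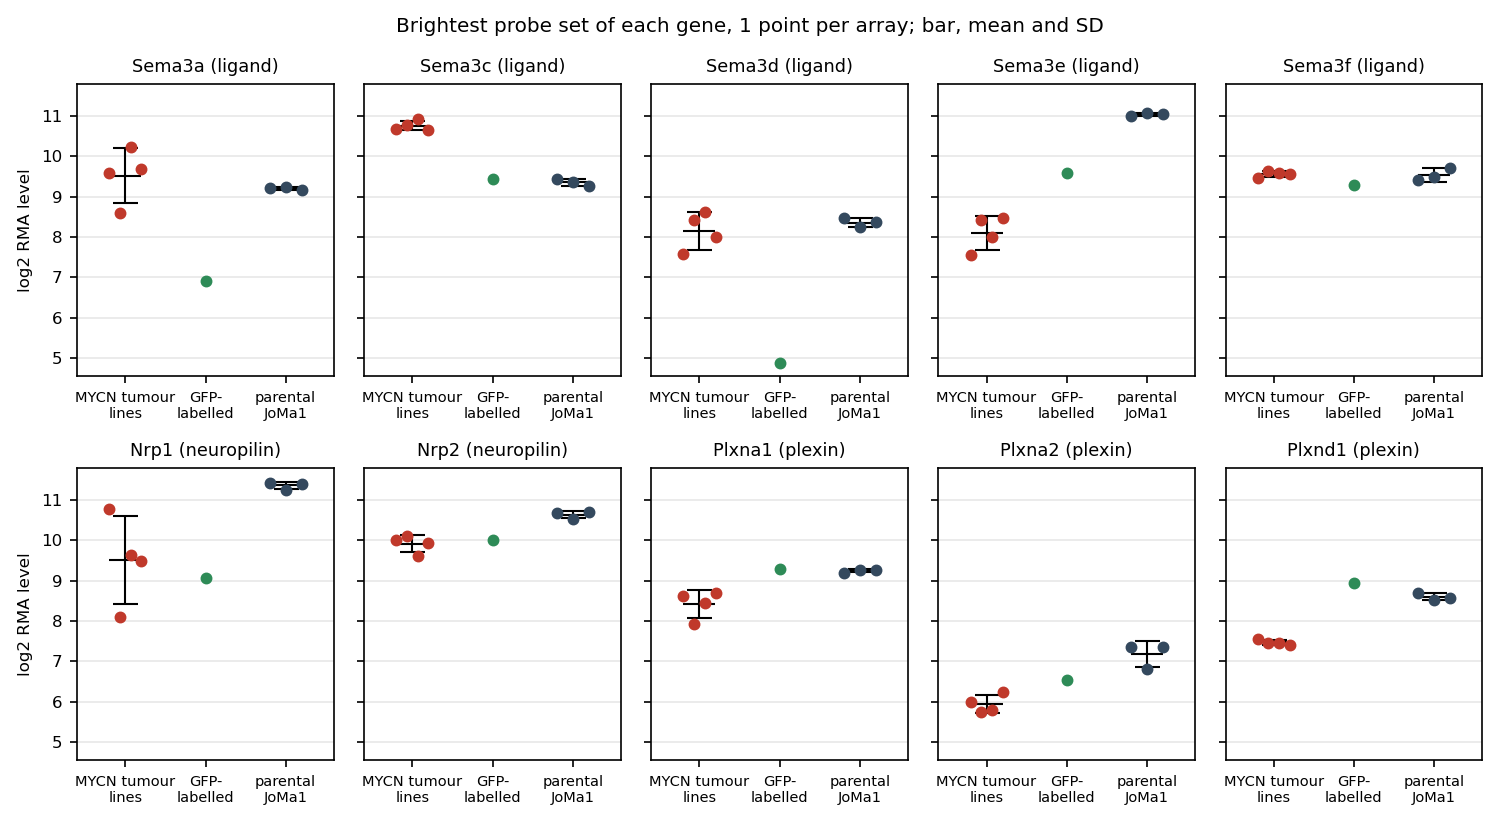
Log2 RMA level (y axis) of the brightest probe set of each member in the 4 MYCN tumour lines (red), the library labelled GFP-transfected (green) and the 3 parental arrays (dark blue), 1 point per array, with the mean and SD of each group of more than 1 array. Sema3e, Nrp1, Nrp2, Plxna1, Plxna2 and Plxnd1 were lower and Sema3c higher in all tumour lines than in all parental arrays, and levels of different genes are not comparable.

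Among the ligands, Sema3e, known for repelling vessels through plexin D1, had the largest difference among the members' brightest probe sets. Its brightest probe set read 7.55, 8.42, 7.996 and 8.46 in tumour lines 3, 4, 5 and 6, against 10.997, 11.06 and 11.04 in parental arrays 1, 2 and 3. All tumour lines lay more than 2 log2 units below all parental arrays, and the parental arrays were close together. The difference was -2.93 (SE 0.20, 7.61-fold lower, limma adjusted p = 1.25e-05). The remaining Sema3e probe sets gave -2.62, -3.02 and -2.88, so that all 4 fell by similar amounts. Tumour line 3 was the lowest on 3 of these 4 probe sets, and tumour line 4 on the other.

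Sema3c, the ligand that draws cardiac neural crest, read 10.68, 10.78, 10.92 and 10.66 in tumour lines 3 to 6, against 9.44, 9.37 and 9.27 in parental arrays. The groups were apart and each was tight. The difference was 1.40 (SE 0.09, 2.65-fold higher, limma adjusted p = 6.86e-06). Its second probe set, at 7.79, 7.54, 7.74 and 7.65 in the lines and 6.50, 6.59 and 6.57 in parental arrays, rose by 1.13 (SE 0.08, limma adjusted p = 1.58e-05). Sema3c was the 1 member gene whose brightest probe set rose.

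Sema3a, which collapses growth cones through Nrp1 and class A plexins, was not called. Its brightest probe set read 9.59, 8.59, 10.23 and 9.68 in tumour lines 3 to 6, against 9.21, 9.24 and 9.17 in parental arrays. Line 4 was below the parental arrays and the other three lines above them. The difference was 0.32 (SE 0.31, 95% interval -0.40 to 1.03, limma adjusted p = 0.506). Without line 4 it was 0.63 and called (adjusted p = 0.0173), and over all alternatives the adjusted p ran from 0.0173 to 0.861. The other 2 probe sets differed by -0.12 and 0.92 and were not called. The one at 0.92 (adjusted p = 0.0515) was called with array weights and without line 4.

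Sema3d, a further secreted ligand of this class, read 7.57, 8.41, 8.63 and 8.003 in tumour lines 3 to 6, against 8.47, 8.24 and 8.36 in parental arrays, and the groups overlapped. The difference was -0.21 (SE 0.22, 95% interval -0.71 to 0.30, limma adjusted p = 0.544), and the second probe set gave 0.21 (adjusted p = 0.198).

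For Sema3f, which signals mainly through Nrp2, the probe sets disagreed. The brightest, whose suffix _x_at marks probes that may cross-hybridise, read 9.46, 9.64, 9.59 and 9.56 in tumour lines 3 to 6, against 9.41, 9.48 and 9.72 in parental arrays, a difference of 0.03 (SE 0.09, 95% interval -0.18 to 0.24, limma adjusted p = 0.865). The other 2 fell, by 0.42 (SE 0.10, adjusted p = 0.0103) and by 0.90 (SE 0.11, adjusted p = 0.000251), without overlap of the groups. Averaged over its 3 probe sets Sema3f was called lower, with a difference of -0.43 (adjusted p = 0.00344).

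**Figure D2:**
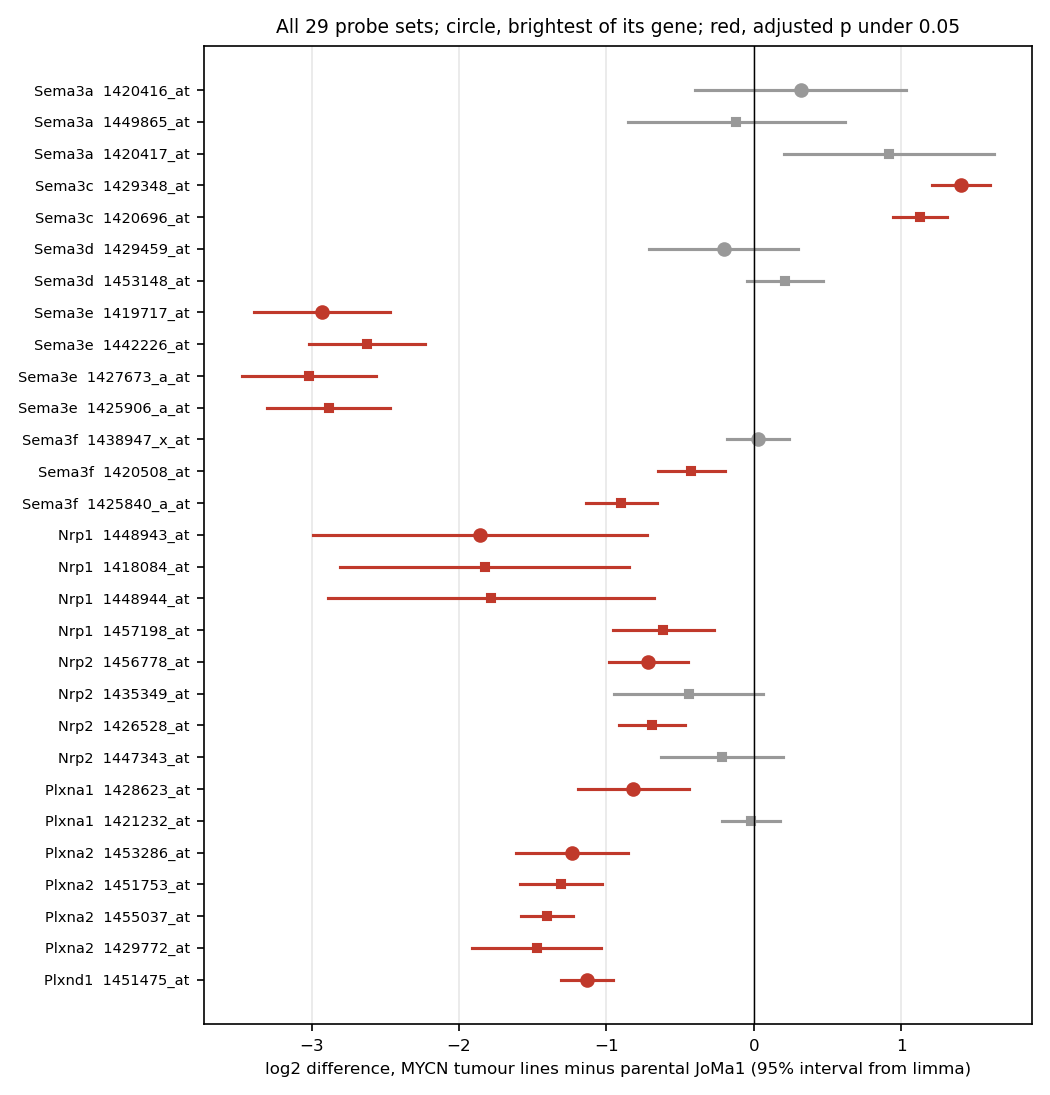
Log2 difference of MYCN tumour lines minus parental JoMa1 (x axis) for each of the 29 member probe sets (y axis), with the 95% interval from limma. Circles are the brightest probe set of a gene, squares the others, and red marks the 20 called probe sets, of which the 4 of Sema3e lay lowest and the 2 of Sema3c highest.

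Both neuropilins fell. Nrp1, the co-receptor of Sema3a and of VEGF-A, read 10.77, 8.11, 9.65 and 9.48 in tumour lines 3 to 6, against 11.43, 11.25 and 11.40 in parental arrays. Each line was below the parental arrays, but the lines spread widely, with line 3 nearest to the parental level and line 4 farthest from it. The difference was -1.86 (SE 0.50, 3.62-fold lower, limma adjusted p = 0.0188). The other 3 probe sets were called lower as well, by -1.83, -1.78 and -0.61. Without any 1 of the parental arrays the brightest probe set was not called (adjusted p = 0.0546 to 0.0662), nor with a trended variance prior (0.0558), nor when the parental group took in the library labelled GFP-transfected (-1.28, adjusted p = 0.196). Its adjusted p ran from 0.00261 to 0.196 over all alternatives.

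Nrp2, the co-receptor of Sema3f and of VEGF-C, changed less. Its brightest probe set read 10.01, 10.11, 9.62 and 9.94 in tumour lines 3 to 6, against 10.67, 10.54 and 10.70 in parental arrays. The groups were apart, and the difference was -0.72 (SE 0.12, 1.64-fold lower, limma adjusted p = 0.00157). A second probe set fell by 0.69 (SE 0.10, adjusted p = 0.000754). The remaining 2 differed by -0.44 (SE 0.22, adjusted p = 0.17) and -0.22 (SE 0.18, adjusted p = 0.416), with line 4 above the parental range on both. Without line 4 both were called lower (-0.63, adjusted p = 0.0169, and -0.38, adjusted p = 0.0415).

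All 3 plexin genes fell by their brightest probe sets. Plxnd1, the direct receptor of Sema3e, has 1 probe set, which read 7.56, 7.46, 7.46 and 7.40 in tumour lines 3 to 6, against 8.71, 8.53 and 8.58 in parental arrays. The lines were close to each other and all below the parental arrays. The difference was -1.13 (SE 0.08, 2.19-fold lower, limma adjusted p = 1.1e-05).

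Plxna2, a partner of Nrp1 for Sema3a and a plexin of cardiac neural crest, fell on all 4 probe sets. The brightest read 6.002, 5.75, 5.80 and 6.24 in tumour lines 3 to 6, against 7.36, 6.80 and 7.36 in parental arrays. The groups were apart although parental array 2 was low. The difference was -1.23 (SE 0.17, 2.35-fold lower, limma adjusted p = 0.000561), and the others gave -1.31, -1.40 and -1.47. The brightest stood under the array medians in each tumour line and above them in each parental array.

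Plxna1, the other class A plexin among the members, read 8.62, 7.93, 8.46 and 8.69 in tumour lines 3 to 6, against 9.20, 9.27 and 9.25 in parental arrays. The groups were apart and line 4 was lowest. The difference was -0.82 (SE 0.17, 1.76-fold lower, limma adjusted p = 0.00503). The second probe set read 5.61 to 5.77 in tumour lines and 5.53 to 5.78 in parental arrays, below the array medians, and differed by -0.02 (SE 0.09, adjusted p = 0.902). The mean of both probe sets differed by -0.42 and was still called.

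The second comparison set the library labelled GFP-transfected against parental arrays. With 1 array it has no spread of its own, and the spread of the other groups stood in for it. Sema3d and Sema3a, whose brightest probe sets were not called in tumour lines, were far below parental levels here, while Sema3c and the 3 plexins were not called by their brightest probe sets. Of the 29 member probe sets, 14 were called (background 14.4%), 14 lower (background 6.76%) and 0 higher (background 7.59%), and 7 changed at least 2-fold (background 4.91%). That library lay outside the parental range for 25 of the 29 (background 69.8%). Among those above the parental mean, 1 had an unadjusted p under 0.05, that of Plxnd1. The brightest probe sets gave 4 lower genes of 10 and 6 not called (background over the brightest probe sets 15.5% called, 7.18% higher and 8.32% lower). These calls share the parental arrays with the first comparison.

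Sema3d read 4.88 in the library labelled GFP-transfected, against 8.24 to 8.47 in parental arrays, a difference of -3.48 (SE 0.34, 11.1-fold lower, limma adjusted p = 0.000306). The tumour lines, at 7.57 to 8.63, were all above that library, by 3.27 on average (SE 0.33, adjusted p = 0.000141). Its second probe set differed from parental arrays by -0.86 (adjusted p = 0.0112). Sema3a read 6.90 in that library, a difference of -2.30 (SE 0.48, 4.93-fold lower, adjusted p = 0.0135). The tumour lines were 2.62 above it (SE 0.46, adjusted p = 0.00283). Sema3a's other probe sets differed from parental arrays by -1.99 (adjusted p = 0.0272) and -1.44 (adjusted p = 0.083).

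Sema3e read 9.60 in that library, between the tumour lines and the parental arrays. Its difference from the parental mean was -1.44 (SE 0.31, adjusted p = 0.0153), and that of the tumour lines from it was -1.49 (SE 0.30, adjusted p = 0.00535). All 4 probe sets had this order and were called in both comparisons. The same order held for the brightest Plxna2 probe set, at 6.55 in that library, but neither step was called (-0.63, adjusted p = 0.149, and -0.60, adjusted p = 0.105). Without parental array 2 both were called (adjusted p = 0.0455 and 0.0486), and by the mean of the Plxna2 probe sets the tumour lines were called below that library (-0.86, adjusted p = 0.00296). On the other 3 Plxna2 probe sets the tumour lines were called below that library (-0.99, -0.82 and -1.05), and 1 of them was called below parental arrays there (-0.59, adjusted p = 0.0112). Nrp1 read 9.07, inside the range of the tumour lines. Its difference from the parental mean was -2.29 (SE 0.75, adjusted p = 0.0823), and the tumour lines differed from it by 0.43 (SE 0.73, 95% interval -1.23 to 2.09, adjusted p = 0.735). With the parental arrays and that library alone in the fit, the Nrp1 difference from parental arrays was called but stayed at -2.29. Its SE fell from 0.75 to 0.105, as the spread then came from the parental arrays alone. That spread may be technical, and the single array of that library adds none. Nrp2 lay inside the range of the tumour lines there and differed by -0.63 from parental arrays (adjusted p = 0.0464), and the tumour lines differed from it by less than their own spread (-0.08, SE 0.17, 95% interval -0.47 to 0.31). The Nrp2 probe sets disagreed in that library against parental arrays. Another was called lower (-0.75), while the remaining ones were not called (-0.03 and -0.06). By the mean of its probe sets Nrp2 was not called there (-0.37). Sema3f was called lower in that library than in parental arrays on the same 2 probe sets as in tumour lines (-0.60, adjusted p = 0.0316, and -0.88, adjusted p = 0.00741) and not on its brightest (-0.26, adjusted p = 0.298). The difference of -0.60 lost its call when any 1 of the parental arrays was left out (adjusted p = 0.0603 to 0.0832).

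For Sema3c, Plxna1 and Plxnd1 the brightest probe set was called between the tumour lines and that library, and not between that library and parental arrays. Sema3c read 9.43 there, inside the parental range (difference 0.07, SE 0.13, 95% interval -0.23 to 0.37), and the tumour lines were 1.33 higher (SE 0.13, adjusted p = 0.000113). Plxna1 read 9.30, a difference of 0.05 from parental arrays (SE 0.25, 95% interval -0.52 to 0.63), and the tumour lines differed from it by -0.87 (SE 0.24, adjusted p = 0.0266). With only the tumour lines and that library in the fit, this Plxna1 difference was not called. The other Plxna1 probe set was not called between them in the main fit (-0.10). Plxnd1 read 8.95, above all parental arrays, by 0.35 (SE 0.12, adjusted p = 0.0854), and the tumour lines differed from it by -1.48 (SE 0.11, adjusted p = 2.99e-05). Over all members, tumour lines against that library gave 16 called probe sets of 29 (background 29.0%), 7 higher (background 12.0%) and 9 lower (background 17.0%), and 12 changed at least 2-fold (background 10.9%). The tumour lines did not overlap that library for 21 (background 67.6%). By brightest probe sets 3 genes were higher, 3 lower and 4 not called (background 30.0% called, 13.8% higher and 16.2% lower). Among probe sets above the median level the shares were nearer, at 61.1% of the members' and 50.1% of all called. Fibroblast markers moved in the library labelled GFP-transfected as well: 6 of 8 fell against parental arrays (median -1.84, background 8.32% lower). In tumour lines 4 of these markers rose and 1 fell against parental arrays (background 16.4% higher and 19.3% lower). Their summed linear level was 23247 to 28623 in tumour lines, 9766 in that library and 24412 to 25452 in parental arrays. Their part in the low Sema3a and Sema3d values was not tested. Cdh5, an endothelial marker named after its value was seen, was 1.96 above the parental mean in that library (adjusted p = 9.01e-05), and the other 9 endothelial markers were not called.

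**Figure D3:**
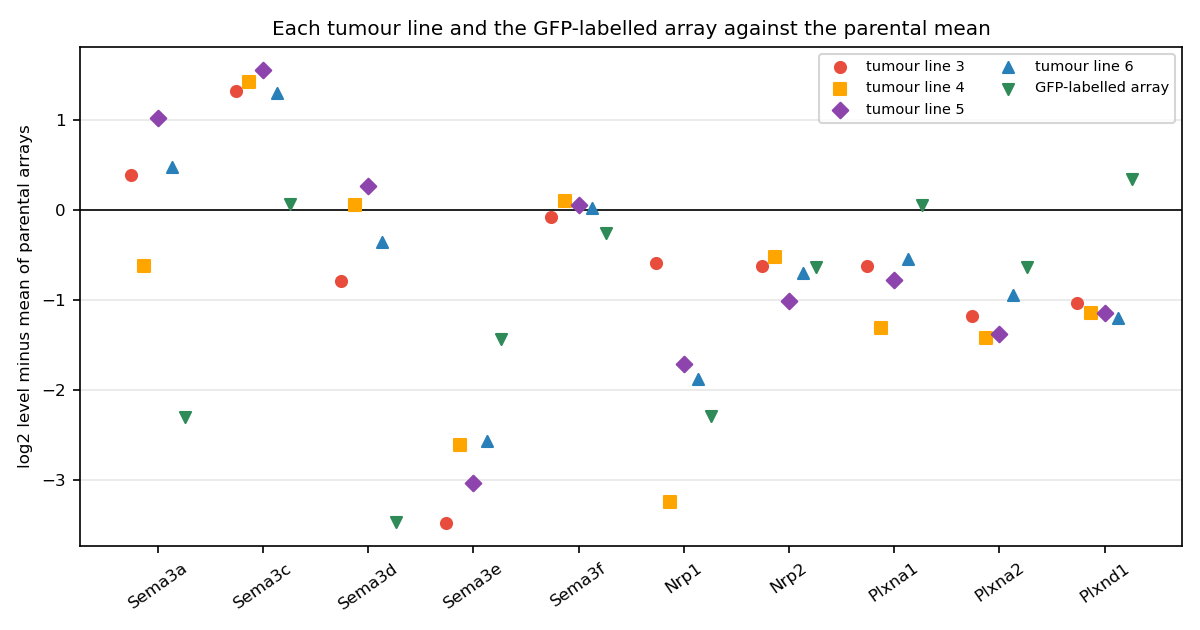
Log2 level minus the mean of the parental arrays (y axis) for the brightest probe set of each member (x axis), in each tumour line and in the library labelled GFP-transfected. Sema3c and Plxnd1 were alike in the 4 lines, Nrp1 ranged from -0.59 in line 3 to -3.25 in line 4, and Sema3d and Sema3a were lowest in the library labelled GFP-transfected.

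The tumour lines differed among themselves, most of all in Nrp1. Each line is 1 array, so these are descriptions. The brightest Nrp1 probe set was 2.66 log2 units (6.34-fold) higher in line 3 than in line 4, whereas the parental arrays spanned 0.17. Sema3a spanned 1.64 units, with line 5 highest and line 4 lowest, against 0.07 among parental arrays. Sema3d spanned 1.05 units, with line 5 highest and line 3 lowest, and Sema3e 0.91, with line 6 highest and line 3 lowest. Among parental arrays these spans were 0.23 and 0.07. Sema3c spanned 0.26 units in tumour lines and 0.17 in parental arrays. For Plxnd1 (0.16 against 0.18), Sema3f (0.18 against 0.31) and Plxna2 (0.49 against 0.56) the tumour lines spanned no more than the parental arrays. Line 4 was lowest in Sema3a, Nrp1 and Plxna1 by the brightest probe set, and highest in Nrp2. The median SD of the 29 probe sets over the lines was 0.24.

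Other genes of the pathway were read from lists, each gene by its brightest probe set, in tumour lines against parental arrays. Over the brightest probe sets of all genes, 16.4% were called higher and 19.3% lower in this comparison. Among 15 other semaphorins 1 rose, 5 fell and 9 were not called, with a median difference of -0.08 (0.01 over the brightest probe sets of all genes). Sema5a, a transmembrane semaphorin that binds plexin B3, averaged 7.22 ± 0.81 in tumour lines and 10.36 ± 0.16 in parental arrays (-3.13, SE 0.38, 8.77-fold lower, limma adjusted p = 0.00028). Sema4d, the ligand of plexin B1, fell by 1.35 (SE 0.15, adjusted p = 0.000213), but its other 2 probe sets were not called. Sema4f rose by 0.86 (SE 0.19, adjusted p = 0.00728), and by 3.92 on its other probe set. Of 6 other plexins 1 rose and 2 fell, with a median of -0.01. Plxnb2 fell by 0.76 (SE 0.11) and Plxna3 by 0.38 (SE 0.11), and Plxnb3 rose by 0.41 (SE 0.11). The other probe set of Plxna3 was not called.

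Among 7 co-receptors and adaptors 1 rose and 6 were not called, with a median of 0.08 (background 16.4% higher and 19.3% lower). The gene that rose was Gipc1, an adaptor that binds the tail of neuropilin 1, at 11.22 ± 0.18 in tumour lines and 9.59 ± 0.07 in parental arrays (1.63, SE 0.10, 3.09-fold higher, limma adjusted p = 8.24e-06). Of 8 VEGF ligands and receptors 2 fell and 6 were not called (median -0.16, background 19.3% lower). Vegfb, a ligand of VEGF receptor 1 and neuropilin 1, fell by 1.82 (SE 0.19, adjusted p = 0.000135), and Vegfd, a ligand of the lymphatic VEGF receptor, by 0.78 (SE 0.23, adjusted p = 0.0283).

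Of 24 measured genes that act inside the cell downstream of plexins, 2 rose and 9 fell (background 16.4% higher and 19.3% lower). Their median was -0.17. Rnd1, a GTPase that binds plexin cytoplasmic domains, averaged 9.88 ± 0.17 in tumour lines and 6.26 ± 0.13 in parental arrays (3.62, SE 0.11, 12.3-fold higher, limma adjusted p = 1.47e-07). It read 8.33 in the library labelled GFP-transfected, 2.07 above the parental mean (adjusted p = 0.000118). Fyn, a kinase of the Sema3a pathway, rose by 1.63 (SE 0.11). Farp1, a guanine nucleotide exchange factor that binds class A plexins, fell by 1.38 (SE 0.13), although its other probe set was not called, and Rnd3, a relative of Rnd1, fell by 1.37 (SE 0.15). Class 3 semaphorins are cut at sites for furin-type proprotein convertases. Of the 4 convertase genes, Pcsk7 rose by 0.48 (SE 0.11). Furin fell by 0.32 (SE 0.09), Pcsk5 by 1.34 (SE 0.24) and Pcsk6 by 1.36 (SE 0.12). On 3 of its other 4 probe sets Pcsk5 was not called. In the library labelled GFP-transfected, Pcsk6 was 0.65 above the parental mean (adjusted p = 0.0437) and Pcsk5 differed from it by -1.71 (adjusted p = 0.0143), and the other 2 convertases were not called. In that library against parental arrays, the background over the brightest probe sets was 7.18% higher and 8.32% lower. There, 1 of the 15 other semaphorins was higher and 2 lower, and 2 of the 6 other plexins were lower. Of the effectors 1 was higher and 6 lower, 1 VEGF gene was lower, and 0 of the 7 co-receptors and adaptors were called in limma (0 at an unadjusted p under 0.05).

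**Figure D4:**
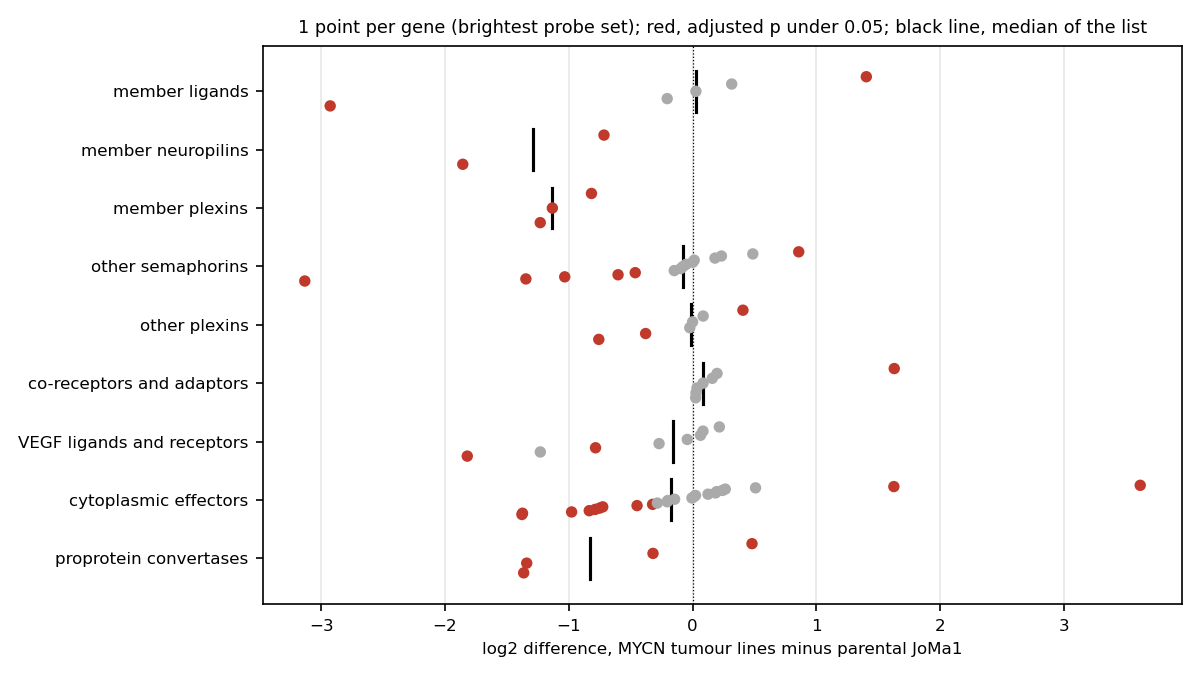
Log2 difference of MYCN tumour lines minus parental JoMa1 (x axis) for the brightest probe set of each gene, by list (y axis). Red marks called genes and the black line the median of a list: the neuropilins and plexins among the members were all lower, while other plexins had a median of -0.01 and Rnd1 reached 3.62.

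Patterns most like those of the members were found by the root mean square difference of profiles over the 8 arrays, each centred on its own mean, among 16331 named genes. Sema3e had the largest SD over the arrays among the ligands, and the genes nearest to it were Bcl2l11 (0.24 log2 units), Plch1 (0.28) and Rragd (0.35). For Nrp1 they were Cand2 (0.40), Gpr85 (0.51) and Fzd2 (0.58). For Plxnd1 they were Atmin (0.08), Gmip (0.08) and Cep290 (0.09). A profile with a small spread has near neighbours more easily, so that these distances do not compare between the 3 members.

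By RefSeq gene order (GRCm38.p6), Sema3d, Sema3a, Sema3e and Sema3c lie in that order on chromosome 5, with no measured gene between Sema3d and Sema3a. Their 6 nearest measured neighbours that are not members gave 0 calls in limma between tumour lines and parental arrays and 0 unadjusted p-values under 0.05. For that library (GFP-transfected by label) against parental arrays the counts were 0 and 0 as well. Over the brightest probe sets of all genes, 35.6% were called in the first of these comparisons and 15.5% in the second. Of the 6 neighbours, 5 lay below the array medians in each group, where a fall may not be measurable. Sema3d and Sema3a, each the other's neighbour, were both called lower in that library, as given above. Nrp2 and Plxna2 lie on chromosome 1, and Plxna1 and Plxnd1 on chromosome 6. Of all 14 neighbours that are not members, 3 were higher and 1 lower in tumour lines (background over the brightest probe sets 16.4% higher and 19.3% lower). Beside Plxna2, Cd34 was 3.42 higher (SE 0.22, limma adjusted p = 7.48e-06) and Mir205hg 0.24 higher (SE 0.07, adjusted p = 0.0296). Beside Plxna1, Chchd6 differed by -1.10 (SE 0.15, adjusted p = 0.00059), and beside Plxnd1, Tmcc1 was 0.41 higher (SE 0.08, adjusted p = 0.00502).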

How the data were processed

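Total RNA from cultured cells was labelled with biotin and hybridised to 8 Affymetrix mouse arrays. The authors deposited log2 expression values made with RMA in Partek, per the submitters' processing notes, whose versions were not stated. The log2 scale was read from the values. RMA normalises arrays to one distribution, so that a change in total RNA per cell cannot be seen. Array number limits the precision.

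Probe sets were named from the platform annotation: of 45101, 34945 had 1 gene symbol, 932 had several, 9160 had none and 64 were controls. Groups came from sample titles and, for the library labelled GFP-transfected, from its transfectant label. Each probe set with 1 symbol was fitted with limma 3.58.1 in R 4.3.3, with 1 coefficient per group over all 8 arrays (lmFit and eBayes, two-sided, Benjamini-Hochberg adjustment over all 34945). The 3 comparisons share arrays and are not independent. Genes in lists were read by their brightest probe set, the one with the highest mean over the 8 arrays.

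The members and lists were chosen with earlier results of these data known. All member probe sets are given; from each list, up to 2 called genes with the greatest rise and up to 2 with the greatest fall are named, and all genes of a list of 5 or fewer. Likeness was computed for the member with the largest SD in each role, and neighbours are the nearest measured genes. Of the effector genes listed, Rhod was not analysed here. On simulated data the fit recovered 92% of 2-fold and 98% of 4-fold changes between tumour lines and parental arrays, and 69% and 93% for the library labelled GFP-transfected against parental arrays. False calls numbered 6 and 15. Only 100 of the 34945 probe sets were changed by each amount, far fewer than were called in the data. The single array was given the spread of the other groups, so these rates are not the power of these data. Alternatives were other probe set choices, filters, variance priors, array weights, normalisations, fits of fewer arrays and leaving out each array.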

Additional observations from a re-analysis of the deposited data

Results flagged for a closer look

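Each of 72 probe sets of members, named pathway genes and neighbours was checked for a tumour line far from the other three, by the gap to the nearest line over the range of the 4 lines (Dixon's test at its usual critical value). Of these, 2 were marked, and chance marks about 1 in 20. Plxnb3 stood at a log2 level of 8.52 in tumour line 6, apart from the other lines. Cd36, a neighbour of the chromosome 5 ligands, stood at 4.65 in tumour line 5, near the level of the trpnX controls. Of the 29 member probe sets 0 were marked.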

How the results depend on the processing

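Of the members' called probe sets, 14 of 20 in tumour lines against parental arrays were called in every alternative that tested them, 10 of 14 in the library labelled GFP-transfected against parental arrays, and 13 of 16 in tumour lines against that library. A value counted as reversed if its sign changed and either it or the main value was called. Of 443 alternative values in the first comparison 1 reversed: Sema3f by the mean of its probe sets (-0.43, adjusted p = 0.00344 in limma). Its main value, of the brightest probe set alone, was 0.03 and not called, so no call was reversed. The sign also changed, with neither value called, for 1 probe set each of Sema3a, Sema3d, Sema3f and Plxna1. With only probe sets above the median level, 13 of the 18 member probe sets tested were called in the first comparison (2 higher and 11 lower, 72.2%), against 54.6% of all 17472 tested. In the library labelled GFP-transfected against parental arrays the shares were 61.1% of members and 26.6% of all. In tumour lines against that library they were 61.1% and 50.1%. With only the arrays compared, the library labelled GFP-transfected against parental arrays gave 7845 called probe sets and 4438 called genes over the whole array. In that fit the spread came from the parental arrays alone, which may be technical. Without parental array 3 the same comparison, fitted with the tumour lines, gave 3334 called probe sets (3334 to 5762 over the arrays left out). Leaving out each array in turn gave 17 to 24 called member probe sets and 6 to 8 genes in the first comparison (25.6% to 34.1% of all probe sets called), 10 to 18 and 3 to 5 in the second (9.54% to 16.5%), and 16 to 17 and 6 to 7 in the third (25.8% to 30.7%). The median SD over the tumour lines was 0.23 to 0.30 without 1 line. All 4 Nrp1 probe sets lost their call in tumour lines when the parental group took in the library labelled GFP-transfected, as did 1 probe set each of Sema3f and Nrp2. In that library against parental arrays, the brightest Nrp2 probe set lost its call when any 1 of the parental arrays, line 3 or line 6 was left out. So did 1 Sema3a probe set for any 1 of the parental arrays (adjusted p = 0.0661 to 0.0775), and 1 Nrp1 probe set for parental array 1 or 3 (adjusted p = 0.0605 and 0.0641). With only the tumour lines and that library in the fit, the brightest Plxna1 probe set lost its call between them. So did 1 probe set each of Sema3a and Sema3e. The single array of that library limits every comparison that uses it. No paired analysis was possible because no label ties a parental array to a tumour line. The number 3 occurs in titles of both groups but does not state a pair. The title of the library labelled GFP-transfected has no number.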
